A study of Triticum aestivum with 4 samples.

Results

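The deposited list of TaCCA1-7D peaks holds 467343 peaks, of which 460130 lie on the 21 named chromosomes. The wheat chromosomes 6A, 6B and 6D, the homoeologues of group 6, hold 58410, or 12.5% of the whole list with its unplaced scaffolds. The members were chosen by chromosome name alone, and every peak on these chromosomes was kept. There were 20549 peaks on 6A, 22564 on 6B and 15297 on 6D. The other 18 named chromosomes held 401720 peaks and the unplaced scaffolds 7213. Measured up to the last peak, 6A spans 618 Mb, 6B 721 Mb and 6D 474 Mb, together 12.9% of the length of the 21 named chromosomes.

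The experiment was DNA affinity purification sequencing (DAP-seq), in which a tagged transcription factor made outside the plant is mixed with sheared genomic DNA and the bound fragments are sequenced. The bait was TaCCA1-7D fused to maltose-binding protein, and the DNA came from leaves of seedlings of the cultivar Fielder. There were 2 libraries with the bait (group CCA1) and 2 libraries of input DNA (group input), all from the same cultivar with no further treatment or genotype. One list stands for the whole experiment and holds no columns per library. No spread between replicates and no comparison of bait with input could therefore be given.

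CCA1 is a MYB-like transcription factor at the core of the plant circadian clock. It acts around dawn, mostly as a repressor, and in Arabidopsis binds the evening element and related sites in the promoters of clock and output genes. Bread wheat is a hexaploid that carries an A, a B and a D subgenome, so each chromosome has a homoeologue of common ancestry in each of the other subgenomes. DAP-seq uses DNA freed of chromatin, so a peak marks DNA that the protein can bind and says nothing of whether the site is occupied in the leaf.

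To show the kind of sequence that this bait was tested on, the probe that the study designed from a promoter on chromosome 1D is given with its mutated form. It is not a member, and no sequence of a group 6 peak is printed, because the genome of the authors' build was not used here. Capitals mark the AATATC core in the first and the 5 changed bases in the second.
DAP-1: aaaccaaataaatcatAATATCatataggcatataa
DAP-M-1: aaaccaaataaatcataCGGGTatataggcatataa

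Peak density on group 6 was within a narrow range. It was 33.2 peaks per Mb on 6A, 31.3 on 6B and 32.3 on 6D, against 31.3 to 34.4 on the other 18 chromosomes. 6B had the lowest density of the 21 chromosomes, nearly tied with 1D (both 31.3), 6A ranked 7 from the highest and 6D 13. With stretches of few peaks, defined below, left out on every chromosome, 6B had 32.2 per Mb and ranked 19. Within the 7 chromosomes of their own subgenomes 6A ranked 6, 6B 7 and 6D 4, so none was among the densest. Because density differs between the subgenomes, each homoeologue was set against the other 6 chromosomes of its own subgenome. The mean difference was -0.47 peaks per Mb. An exact permutation test over the 343 ways of choosing a chromosome per subgenome, two-sided, gave p = 0.271. The adjusted p was 0.575 (the same exact permutation test, Benjamini-Hochberg over 10 measures). The difference was -0.594 without subgenome A, -0.078 without subgenome B, -0.741 without subgenome D and -0.135 with those stretches left out. It was -0.171 at an FDR below 1e-10 and -0.0438 at a fold enrichment above 10. These filters left 93006 and 14119 of the 467343 peaks, so their differences are on another scale. The smallest p this design can give is 0.00292. The chromosomes all come from the same list and do not replicate the experiment. The p-values here and below thus compare chromosomes within that list. The difference of 6B minus 6D, -1.01 peaks per Mb, lay outside the range of the same difference in the other 6 groups, which ran from -0.525 to 1.57. Such differences were taken for each pair of homoeologues and each of the 10 measures. Every comparison of 7 groups has a highest and a lowest, so an extreme rank alone is a description.

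**Figure D1:**
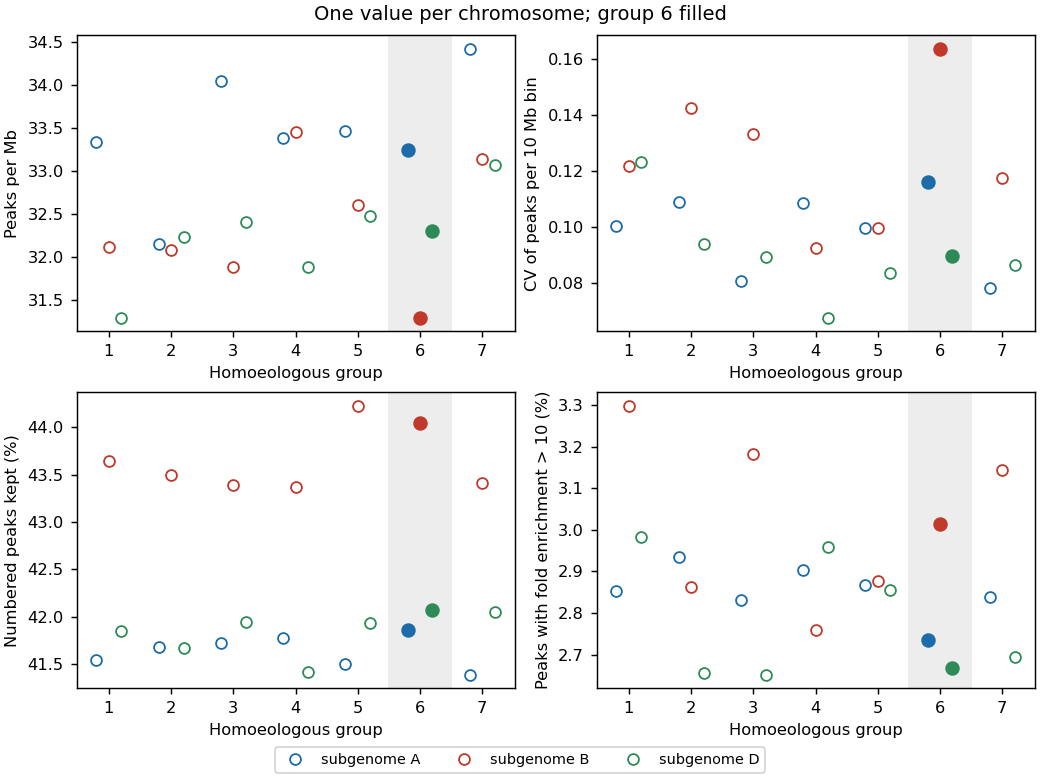
One point per chromosome for 4 measures, by homoeologous group (horizontal) and subgenome (colour), with group 6 filled and shaded. The vertical axes are peaks per Mb, the coefficient of variation (CV) of peaks per 10 Mb bin, the percentage of numbered peaks kept and the percentage of peaks with a fold enrichment above 10, and none starts at 0. 6B has the lowest density of the 21 chromosomes, 31.3 peaks per Mb, nearly tied with 1D, and the highest CV, 0.164.

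Peaks were spread least evenly on 6B. The coefficient of variation (CV) of peak counts over complete 10 Mb bins was 0.116 on 6A, 0.164 on 6B and 0.0896 on 6D, against 0.0675 to 0.143 on the other 18 chromosomes. 6B was the most uneven of the 21 and 6A the most uneven of the A subgenome, while 6D ranked 3 of the 7 D chromosomes. Group 6 exceeded the matched chromosomes by 0.0215 (the same exact permutation test, p = 0.0525, adjusted p = 0.262), which did not pass the threshold of 0.05. Without the 3 sparsest bins of every chromosome the CV of 6B fell to 0.117 and was still the highest of 21, but the difference of group 6 fell to 0.0133. Without subgenome B it was 0.0094, and at an FDR below 1e-10 0.0122. Without subgenome D it was 0.0329 (the same exact permutation test, p = 0.0204, adjusted p = 0.102). The alternative without the sparsest bins was chosen after the bins had been seen.

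The median complete bin held 339 peaks on 6A (61 bins, quartiles 319 and 359), 321 on 6B (72 bins, 295.75 and 341) and 324 on 6D (47 bins, 309 and 339). The extremes lay far from these medians. The sparsest of all 1397 complete bins on the 21 chromosomes was on 6B from 260 to 270 Mb, with 78 peaks (95% Poisson interval 61.7 to 97.3, counting error only). The next sparsest anywhere were a bin on 2B with 123 peaks and a bin on 3B with 142. On 6B the bins from 420 to 430 Mb (181 peaks) and from 270 to 280 Mb (191) followed. The sparsest on 6A were those from 30 to 40 Mb (226), 520 to 530 Mb (232) and 280 to 290 Mb (236). On 6D they were 210 to 220 Mb (234), 460 to 470 Mb (257) and 340 to 350 Mb (269). Under 200 peaks were found in 4 of the 180 bins of group 6, all on 6B, and in 7 of the 1217 bins elsewhere.

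The densest of the 1397 bins was on 6A from 590 to 600 Mb, close to the end of the chromosome, with 431 peaks (391 to 474). The next densest anywhere was a bin on 3B with 427, within its counting interval. It was the only bin of group 6 with over 400 peaks, against 8 of 1217 elsewhere. The other dense bins of 6A were 40 to 50 Mb (379 peaks) and 150 to 160 Mb (374). On 6B the 3 densest all lay within the first 90 Mb, at 60 to 70 Mb (399), 40 to 50 Mb (394) and 80 to 90 Mb (380). On 6D the first bin, 0 to 10 Mb, was the densest with 397, followed by 430 to 440 Mb and 450 to 460 Mb with 370 each. The densest bin of 6A had a median spacing of 16.8 kb and that of 6D 18.3 kb, while the sparsest bin of 6B had 36.8 kb.

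**Figure D2:**
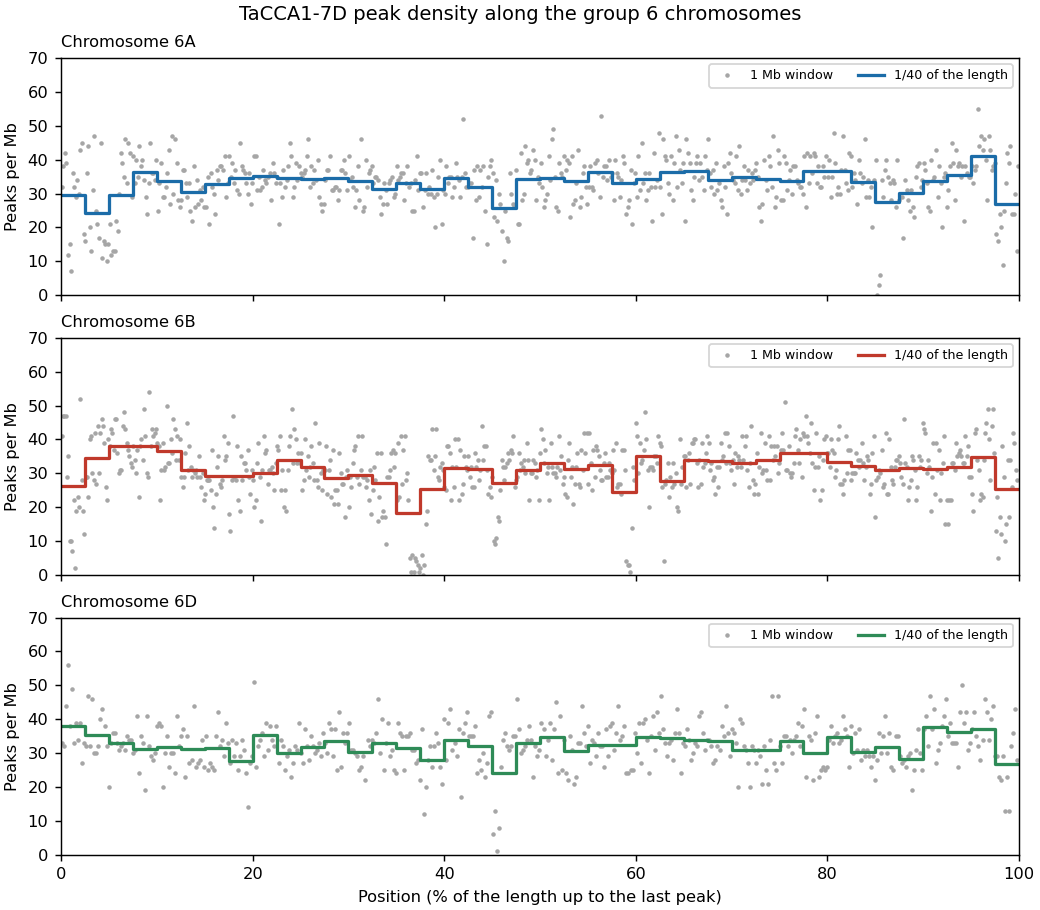
Peaks per Mb (vertical) along 6A, 6B and 6D, with position as a percentage of chromosome length, measured to the last peak (horizontal). Grey points are single 1 Mb windows and the coloured line is the mean over each of 40 equal parts of the chromosome. Density is low between 45 and 47.5% and in the last 2.5% of all 3 homoeologues, and 6B has a further low from 36.3 to 38.1%.

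Counts in 1 Mb windows located the sparse regions more closely. A low stretch was defined, after the data had been seen, as at least 3 consecutive 1 Mb windows with at most 16 peaks each, where the median window held 32 to 34. There were 9 on group 6 (4 on 6A, 4 on 6B, 1 on 6D) and 22 on the other 18 chromosomes. The sparse bins of 6A from 280 to 290 Mb and of 6D from 340 to 350 Mb and from 460 to 470 Mb held none. Of the 1 Mb windows, 70 of 1811 (3.87%) on group 6 and 319 of 12242 (2.61%) elsewhere had at most 16 peaks. The share was 3.56% on 6A, 5.56% on 6B and 1.69% on 6D, and single chromosomes elsewhere ran from 0.940 to 6.24%.

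The longest of the 31 stretches was on 6B from 262 to 275 Mb. It held 52 peaks over 13 Mb, or 4.00 per Mb (95% Poisson interval 2.99 to 5.25), against 32.3 per Mb in the 5 Mb on either side. The drop was abrupt on the left, from 22 peaks in the window before it to 5 in its first, and on the right the counts rose from 3 through 15 and 19 to 35. Its 1 Mb windows held 0 to 15 peaks, and the window from 272 to 273 Mb held none. No low stretch on another chromosome was longer than 10 Mb. The peaks that MACS2 had numbered before the authors' filter were also few there, at 8.31 per Mb against 75.1 in the flanks, so the low count was present before the filter. Of the 52 peaks, 57.7% had the lowest background in the list, against 23.2% in the flanks. Whether read depth has a part in this stretch was not tested.

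The other stretches were shorter. On 6B, 425 to 430 Mb held 5.0 peaks per Mb against 33.2 in its flanks, 6 to 9 Mb held 9.0 against 29.1, and 325 to 328 Mb held 10.0 against 25.7. On 6A, 526 to 529 Mb held 9 peaks in 3 Mb, or 3.0 per Mb (1.37 to 5.69) against 33.0, and only 2 stretches elsewhere were sparser. The 3 remaining stretches of 6A lay near its start, at 4 to 7 Mb (11.3 per Mb), 26 to 31 Mb (13.4) and 32 to 35 Mb (12.7). The single stretch of 6D, from 213 to 217 Mb, held 7.00 per Mb against 32.2. The share of peaks at the lowest background was higher inside than in the flanks for the 8 stretches of 6A and 6B, and lower for that of 6D, at 21.4 against 28.0%.

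**Figure D3:**
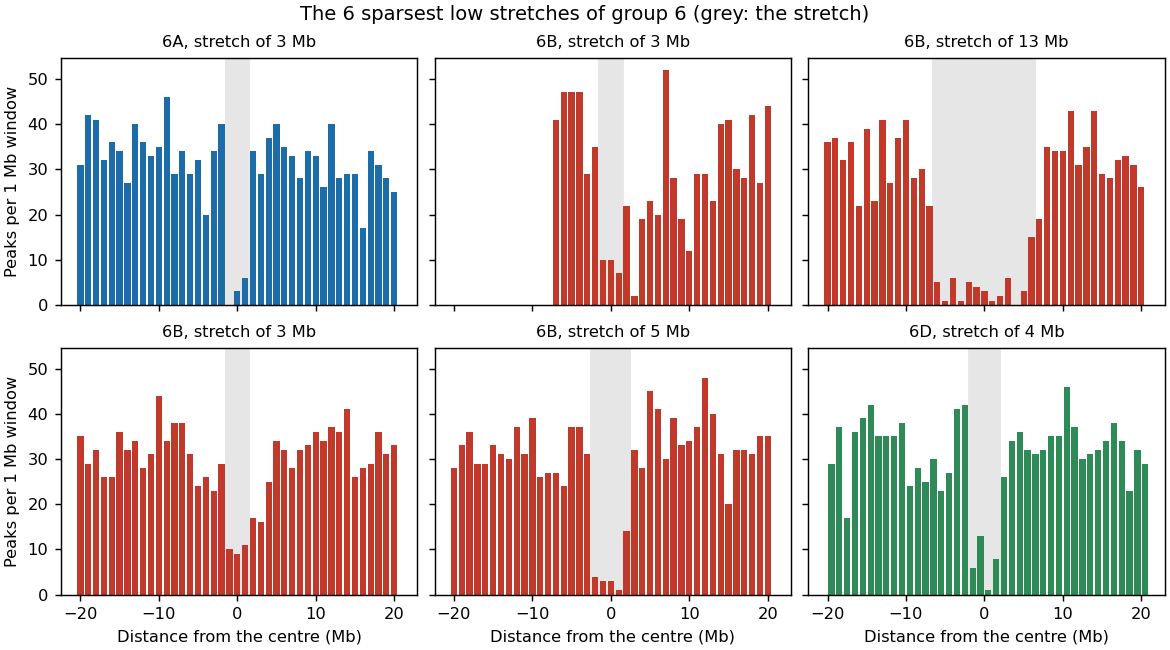
Peaks per 1 Mb window (vertical) by distance in Mb from the centre (horizontal) of the 6 sparsest low stretches of group 6, each shaded grey over its length. The 13 Mb stretch of 6B stands out by its length, with 0 to 15 peaks per window against about 32 on either side. The first 6B panel lies near the start of the chromosome, so windows to its left do not exist.

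A low near the middle was found on all 3 homoeologues. Between 40 and 50% of the length, the sparsest 5 Mb lay at 46.0 to 46.8% on 6A (284 to 289 Mb), at 45.1 to 45.8% on 6B (325 to 330 Mb) and at 45.0 to 46.0% on 6D (213 to 218 Mb). These 5 Mb held 87 peaks on 6A (17.4 per Mb), 63 on 6B (12.6) and 54 on 6D (10.8). The median over all runs of 5 windows was 34.0, 32.0 and 32.6 per Mb on the same chromosomes. On the other 18 chromosomes the sparsest 5 Mb of this interval ranged from 6.80 to 32.8 per Mb, with a median of 22.9, so all 3 homoeologues lay below that median and within the range. Centromere positions were not used here.

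The longest distances between neighbouring summits lay in these low stretches, except the third of 6A. On 6B they were 1.35 Mb (271767007 to 273118160), 1.28 Mb (263044408 to 264323335) and 1.05 Mb (425427098 to 426474310). On 6A the longest was 1.33 Mb (525997368 to 527326495), followed by 0.665 Mb from 527474003 and 0.550 Mb from 14605716. The 3 longest of 6D, 1.10, 0.90 and 0.843 Mb, all lay between 213281663 and 216847021. Positions are 1-based and in the Ensembl wheat genome that the authors used.

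In relative position the homoeologues were weakly alike. Over 40 equal parts of each chromosome, the peak counts of 6A and 6B gave r = 0.290, those of 6A and 6D r = 0.352 and those of 6B and 6D r = 0.225 (Spearman's rho 0.404, 0.258 and 0.215). The mean of these r, 0.289, was the highest of the 7 groups, whose other means ran from -0.0698 to 0.278. For the 189 pairs of chromosomes from different groups the median was 0.0466, the quartiles were -0.0743 and 0.162 and the range was -0.451 to 0.666. The points are parts of chromosomes that share the same libraries and ends, so these values are a description. A pair of these parts was low on all 3 homoeologues. The part from 45 to 47.5% held 25.6, 27.1 and 24.1 peaks per Mb on 6A, 6B and 6D, and the last, from 97.5 to 100%, held 26.8, 25.5 and 26.7. Without these 2 parts the mean was 0.125 and ranked 3 of 7. They were chosen because they were low on all 3 homoeologues, so leaving them out had to lower it.

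Neighbouring summits were a median of 20.8 kb apart on 6A, 21.3 kb on 6B and 21.5 kb on 6D, against 20.3 to 22.1 kb on the other 18 chromosomes. The quartiles were 10.4 and 39.6 kb on 6A, 10.4 and 40.8 kb on 6B and 10.7 and 41.0 kb on 6D. Group 6 differed from the matched chromosomes by 207 bp (the same exact permutation test, adjusted p = 0.575). Distances above 200 kb numbered 57 on 6A, 123 on 6B and 33 on 6D. Single chromosomes of the other 18 had 28 to 146, with a median of 57.5, so all 3 homoeologues lay within that range.

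Short distances were scarce below a sharp step at 5 kb. On 6A there were 197 distances from 4 to 5 kb and 600 from 5 to 6 kb, on 6B 234 and 673, and on 6D 140 and 478. Below the step the counts rose again towards the shortest distances, with 502, 534 and 299 under 1 kb. The same shape was seen on the other 18 chromosomes. Peaks differed across the step in their local background, which MACS2 estimates from the tags around the summit. On group 6 the median background was 1.34 tags for the 3313 peaks whose nearest summit was 2 to 5 kb away and 0.950 tags for the 9972 at 5 to 8 kb. Fold enrichment above 10 was found for 0.483 and 3.01% of these, while a summit pileup of at least 20 tags was about as frequent, at 7.73 and 7.64%. The part of the background in the step was not tested.

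Pairs of summits closer than 2 kb made up 4.17% of distances on 6A, 4.44% on 6B and 3.60% on 6D, and 6B had the highest share of the 21 chromosomes. The other 18 ran from 3.57 to 4.36%. The mean difference of group 6 was 0.0675 percentage points (the same exact permutation test, adjusted p = 0.575), and its sign and size depended on the choices made. It was -0.00219 without subgenome B, 0.186 without subgenome D (the same exact permutation test, p = 0.0204, adjusted p = 0.102), -0.143 for distances under 5 kb, and below 0 under both stricter filters. Runs of 3 summits at most 2 kb apart numbered 14 on 6A, 17 on 6B and 3 on 6D, and no run there was larger. Single chromosomes of the other 18 had 4 to 18 such runs. The tightest run of 6B had 3 summits within 965 bp, in peaks from 694714539 to 694715905 with fold enrichments of 5.51, 6.42 and 5.51. That of 6A spanned 1157 bp (224595438 to 224596787) and that of 6D 1399 bp (91623117 to 91624911). All 9 peaks of these runs were weak, with 10 to 13 tags at the summit.

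**Figure D4:**
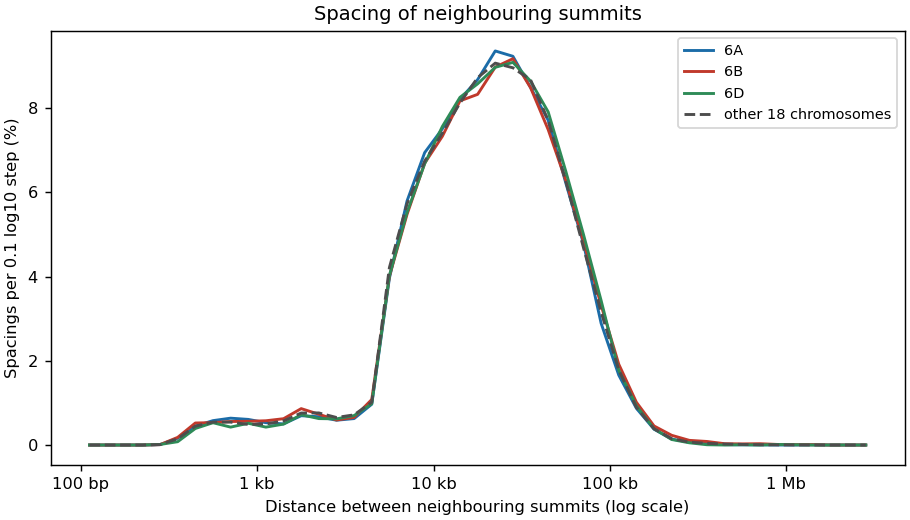
Percentage of distances between neighbouring summits (vertical) in steps of 0.1 of log10 distance (horizontal, log scale) for 6A, 6B, 6D and the pooled other 18 chromosomes. The 4 curves nearly coincide, with a step at 5 kb and a broad top near the medians of 20.8 to 21.5 kb.

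Peak width hardly varied between the homoeologues. The median was 482 bp on 6A, 486 bp on 6B and 483 bp on 6D, against 475 to 492 bp elsewhere. Over group 6 the quartiles were 331 and 661 bp and the range was 176 to 2089 bp. The difference of 1.17 bp from the matched chromosomes did not pass the test (the same exact permutation test, adjusted p = 0.603). Over 10 Mb bins the median width ran from 402 to 524 bp on 6A, from 423 to 540 bp on 6B and from 435 to 526.5 bp on 6D. Peaks with a neighbour under 2 kb away were narrower, with a median of 370 bp, than those whose nearest neighbour was at least 8 kb away, with 503 bp. On the other 18 chromosomes these medians were 368 and 503 bp. The widest peak of group 6, from 712193459 to 712195547 on 6B, was a weak one, with a fold enrichment of 5.53 and 16 tags.

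Fold enrichment is the ratio that MACS2 gives for the summit, the tags there plus 1 over the local background in tags plus 1. It was nearly the same on the 3 homoeologues. The median was 6.17 on 6A, 6.20 on 6B and 6.17 on 6D, against 6.17 to 6.24 on the other 18 chromosomes (adjusted p = 0.603 from the same exact permutation test). These medians are coarse, because the values fall on steps. The tags and the background behind each value could be recovered, and the commonest value, 5.55, held by 5114 of the 58410 peaks (8.76%), is always 8 tags over the lowest background of 0.621 tags. The next, 6.17, held by 3088 peaks, is 9 tags over the same background. The median of 11 of the 21 chromosomes falls on 6.17. The summit pileup had a median of 12 tags on each homoeologue, and 92.0% of the group 6 peaks had under 20 tags, so a typical fold enrichment rests on few tags.

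Strong peaks, with a fold enrichment above 10, numbered 562 on 6A (2.73%, 95% Wilson interval 2.52 to 2.97%), 680 on 6B (3.01%, 2.80 to 3.24%) and 408 on 6D (2.67%, 2.42 to 2.93%). The share over the whole list, which includes the unplaced scaffolds, was 3.02%, and over the other 18 chromosomes pooled it was 2.90%. The 1650 strong peaks of group 6 were 2.82% of its peaks. Each homoeologue lay below the mean of its subgenome, with a mean difference of -0.0919 percentage points (the same exact permutation test, p = 0.373, adjusted p = 0.575). A summit pileup of at least 20 tags was reached by 1638 peaks on 6A (7.97%), 1888 on 6B (8.37%) and 1121 on 6D (7.33%). The share was 8.13% over the whole list and 8.03% over the other 18 chromosomes pooled. The comparison with the matched chromosomes gave an adjusted p of 0.603 (the same exact permutation test). Wilson intervals cover counting error only. 6A minus 6D, at 0.643 percentage points, was the largest of the 7 groups for this pileup share, and the other groups ran from -0.0179 to 0.519. It is likewise an extreme picked from many such differences and was not tested.

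The 5 strongest peaks of each homoeologue had fold enrichments between 20.1 and 28.0. On 6B the peak from 34333445 to 34333770 had a fold enrichment of 28.0 from 58 tags over a background of 1.11 tags, and it was the strongest of group 6. It was followed by the peak from 615598739 to 615599348 with 26.4 from 144 tags. On 6D the peaks from 262808249 to 262808534 and from 82272331 to 82272599 had 27.5 and 27.4, from 68 and 52 tags. On 6A the strongest, from 13142538 to 13143003, had 23.3 from 65 tags, and 60 peaks on the 21 chromosomes exceeded it, against 16 above the strongest of 6B and 18 above that of 6D. The most tags at any group 6 summit, 173 (95% Poisson interval 148 to 201), were in a peak on 6A from 592504063 to 592504679, with a fold enrichment of 20.1 over a background of 7.67 tags. This peak lies in the densest 10 Mb bin of the list. Strong peaks were wider than the others at the median, 586.5 against 481 bp, although the 5 strongest on 6D had widths of only 269 to 416 bp. On the other 18 chromosomes the medians were 593 bp for strong peaks and 479 bp for the rest.

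Strong peaks were more frequent towards the ends. In the outer 10% at either end, 4.03% of the peaks on 6A were strong (3.46 to 4.69%) against 2.42% in between (2.20 to 2.67%). On 6B the shares were 4.00% (3.48 to 4.60%) and 2.75% (2.52 to 3.0%), and on 6D 3.25% (2.69 to 3.91%) and 2.51% (2.25 to 2.80%). The intervals, which cover counting error only, did not overlap on 6A and 6B, and overlapped on 6D. 6D also had the fewest outer peaks, 3264 against 3968 on 6A and 4696 on 6B. Peaks of the same list are not replicates, so this overlap is a description and not a test. The same direction was found on 20 of the 21 chromosomes, so it is not particular to group 6. The first 5% of the length had the highest share on each homoeologue, 5.54% on 6A, 5.20% on 6B and 4.02% on 6D, against 3.71% in the first 5% of the other 18 chromosomes pooled. The interval of 6D (2.91 to 5.54%) holds that value. In the last 5% the shares were 4.20% on 6A, 4.32% on 6B and 3.43% on 6D, against 4.34% on the other 18 pooled. Peak density itself showed no shared rise at the ends. The ratio of outer to inner density was 0.957 on 6A, 1.05 on 6B and 1.09 on 6D (difference from the matched chromosomes 0.0303, adjusted p = 0.575 from the same exact permutation test).

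**Figure D5:**
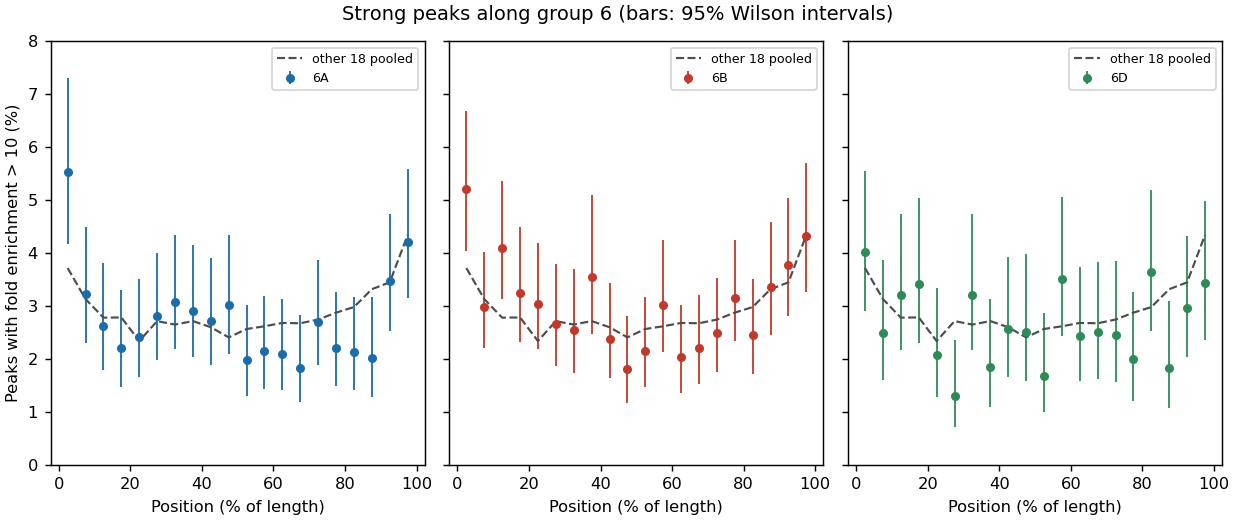
Percentage of peaks with a fold enrichment above 10 (vertical) in 20 equal parts of 6A, 6B and 6D, with position as a percentage of length (horizontal). Points carry 95% Wilson intervals, which cover counting error only, and the dashed line is the pooled share of the other 18 chromosomes. The first part is the highest of each homoeologue, 5.54% on 6A, 5.20% on 6B and 4.02% on 6D.

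By complete 10 Mb bin the highest median fold enrichment of each homoeologue lay at a single end. It was 6.65 in the first bin of 6A (0 to 10 Mb) and 6.64 on 6B from 710 to 720 Mb. On 6D it was 6.73 from 460 to 470 Mb, the highest of the 1397 bins. Of the peaks in this 6D bin 2.72% were strong, a share that ranked 708 of the 1397. The complete bin at the other end had 6.21 on 6A, 6.36 on 6B and 6.29 on 6D. Some inner bins of each homoeologue lay above that value. The lowest medians were 6.14 on 6A (110 to 120 Mb), 6.06 on 6B (230 to 240 Mb) and 6.14 on 6D (40 to 50 Mb). That bin of 6D lies mostly within the outer 10% of the chromosome. Across bins, peak counts and median fold enrichment were weakly related, with r = -0.312 on 6A (61 bins), 0.0658 on 6B (72 bins) and -0.327 on 6D (47 bins). Peak counts followed the number of peaks numbered before the filter, with r = 0.888, 0.950 and 0.843. Bins of a chromosome share libraries and filter, and the counts after the filter are part of those before it, so these r are a description.

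A bin near the start of 6A held many peaks with high tag numbers. From 20 to 30 Mb there were 238 peaks, of which 20.2% had at least 20 tags and 7.98% were strong, and this share of peaks with at least 20 tags was the highest of the 1397 bins, nearly tied with 20.1% in the highest bin of the other 18 chromosomes. It came mostly from a pair of 1 Mb windows. The window from 25 to 26 Mb held 45 peaks, 20 of them with at least 20 tags (44.4%, 95% Wilson interval 30.9 to 58.8%) and 9 strong. The window from 21 to 22 Mb held 47 peaks, 14 with at least 20 tags (29.8%, 18.7 to 44.0%) and 5 strong. Over the 13460 windows with at least 20 peaks on the 21 chromosomes the median share was 7.32%, and the window from 25 to 26 Mb ranked 2. Its neighbours were sparse, with 17 peaks from 24 to 25 Mb and 11 from 26 to 27 Mb. Its mean background was 1.72 tags, against a median of 1.12 over the ranked windows, so background and pileup were both high there. The background may not be independent of the pileup, since it is not known whether it was counted from bait or input tags. Within it the most tags, 76, were in a peak from 25069140 to 25069899 with a fold enrichment of 11.7, and the highest fold enrichment, 17.3, in a peak from 25330501 to 25330807 with 31 tags. The windows were picked for their values, so no test was made.

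The share of numbered peaks that passed the authors' filter was 41.9% on 6A, 44.0% on 6B and 42.1% on 6D. 6A had the highest share of the 7 A chromosomes, 6D the highest of the 7 D chromosomes and 6B the second of the 7 B chromosomes. All 3 lay above the mean of the other chromosomes of their subgenome, with a mean difference of 0.320 percentage points from the matched chromosomes (the same exact permutation test, p = 0.0466). It did not pass after adjustment (adjusted p = 0.262 from that exact permutation test, Benjamini-Hochberg over 10 measures). In an exact permutation test that did not match by subgenome p was 0.548. Stricter filters change the quantity to the share of all numbered peaks past the new cutoff. Its difference was -0.0292 points at a fold enrichment above 10 and -0.0426 at an FDR below 1e-10. Before the filter there were 79.4, 71.1 and 76.8 numbered peaks per Mb on 6A, 6B and 6D. The low density of 6B was thus present in the numbered peaks too, and a larger share of them was kept.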

How the data were processed

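Paired reads were, per the authors' methods, trimmed with Trimmomatic, aligned to the Ensembl wheat genome with Bowtie2 2.3.4 and filtered on mapping quality with SAMtools 1.9. Duplicates were removed with Picard, and peaks were called with MACS2. Only peaks with an FDR below 1e-5 and a MACS2 fold enrichment of more than 5 were kept. For further work the paper selected the peaks that overlapped DNase I hypersensitive sites, which mark accessible chromatin. The list described here is not restricted to those peaks. Whether replicates were pooled and which control was used is not given in the sources used here. The local background may thus have been counted from the bait tags themselves. In that case no background value given here is a separate observation from the peaks and tags around it. The deposited list holds a position, a score (10 times the −log10 q-value, as a whole number), the fold enrichment (a ratio) and the −log10 p-value and q-value at the summit, all as the authors' software gave them. No depth per library can be read from it, although the study reports far more reads for the second CCA1 library than for the first.

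The pileup was computed as the whole number that reproduces both the deposited fold enrichment, (pileup + 1) over (background + 1), and the Poisson −log10 p-value. The misfit was under 0.0001 for 100% of peaks. The method and the permutation test were also tested on simulated data. Density was taken over the length to the last peak, and only complete 10 Mb bins were compared. Numbered peaks per chromosome or bin were taken from the peak numbers in the list. The main test permuted which chromosome of each subgenome stands for group 6, and the alternatives changed the chromosomes compared, the filter and the thresholds. Regions were named by a rule: on each homoeologue the 5 strongest peaks, the widest, the 3 longest distances, the 3 densest and 3 sparsest bins, the bins of extreme median fold enrichment and the tightest run. Low stretches, the 5 Mb windows near the middle and the 1 Mb windows of high pileup were chosen after their values were seen. The members and measures were chosen with earlier results of these data known. Python 3.11.15 was used with scipy 1.17.1, numpy 2.4.6, pandas 2.3.3 and, for plots, matplotlib 3.10.9. Nearest genes are not given, since no annotation of the build was used. The input libraries entered no comparison.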

Additional observations from a re-analysis of the deposited data

How the results depend on the processing

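No paired analysis was possible because the deposited list does not separate the libraries, and for the same reason no replicate could be left out. Of 89 alternatives, 84 carried a test and none passed the adjusted threshold (lowest adjusted p 0.102 from the exact permutation test). The lowest p of the exact permutation test over the alternatives, 0.0204, is also the smallest that a test without a subgenome can give. Those tests thus had little room to pass after adjustment over 10 measures, and their failure to pass says little. Adjusted p ranged from 0.238 to 0.810 for the kept share and from 0.102 to 1 for the CV, whose differences stayed above 0. The sign of a small difference turned in 15. For median width it became -0.5 bp without subgenome A, -4.83 bp with fold enrichment above 10 and -4.25 bp with an FDR below 1e-10. For the share with at least 20 tags it became 0.0308 percentage points without subgenome B, 0.819 with fold enrichment above 10 and 0.0835 with the stricter FDR. For summits under 2 kb apart it became -0.00219 points without subgenome B, -0.0200 and -0.104 under the same filters, and -0.143 for distances under 5 kb. The share of all numbered peaks past the cutoffs of these filters, another quantity than the main kept share, differed by -0.0292 and -0.0426 points. Median fold enrichment became 0.00579 with the stricter FDR, the strong share 0.0230 points at a threshold of 15, and the outer to inner ratio -0.0143 with the outer 5%. The mean likeness of the homoeologue profiles, 0.289, was 0.202 over 20 bins, 0.430 with fold enrichment above 10, 0.392 with the stricter FDR and 0.125 without 2 bins, the last chosen after seeing the data. Fewer peaks remain under the filters, 1650 and 11412 on group 6, and the causes were not tested.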
